A study of Mus musculus with 12 samples.

Results

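Thy1 encodes CD90, a small glycoprotein held in the outer leaflet of the plasma membrane by a lipid anchor. It lies on mouse chromosome 9 (GRCm38, chr9:44043384-44048579, plus strand). The genes described here were the protein-coding genes of GENCODE release M21 that start within 10 Mb of the Thy1 start and averaged at least 1 CPM over the 12 libraries, where CPM is the estimated reads of a gene scaled to the library total. Cd3d, Cd3e, Cd3g and Zbtb16 were left out by name. Of 293 protein-coding genes in the interval, 183 were below 1 CPM and 97 of these were at 0 in all 12 libraries, which left 106 genes of the 29542 genes with a transcript in the files. Members were thus selected on position and on the level averaged over all libraries, with no difference between groups in the rule, although the interval was proposed with earlier results of these data known. Tmem136 (1.04 CPM), Mcam (1.11 CPM) and Fez1 (1.2 CPM) were the members closest above the level limit, and Tagln (0.932 CPM), Tmem25 (0.925 CPM) and Plet1 (0.91 CPM) were closest below it. The outermost members were St3gal4 (start 35046576) and Slc35f2 (start 53771538), and the nearest protein-coding genes above 1 CPM beyond the interval were Ets1 (start 32636221) and Dmxl2 (start 54365158).

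The series compared group 2 innate lymphoid cells (ILC2s), tissue-resident lymphocytes that answer the alarmin IL-33 with type 2 cytokines, between Rag1-/- and wild-type donors. Marrow from Rag1-/- mice carrying CD45.2 and from wild-type mice carrying CD90.1 was mixed 1:1 and given to CD45.1 congenic recipients irradiated with 950 cGy, so that cells of both genotypes developed in a shared host. IL-33 was then injected daily for 7 days, with 30 ng into each cheek and 240 ng into the peritoneum, and ILC2s were sorted from skin-draining lymph nodes. The 4 groups of 3 libraries were Rag1-/- ILC2s labelled CD90.2 at 20 weeks after transplant (KO, 20 weeks), wild-type ILC2s labelled CD90.1 at 20 weeks (WT, 20 weeks), and the same genotypes at 8 weeks (KO, 8 weeks, and WT, 8 weeks). All groups were labelled C57BL6 and all shared the irradiation, the mixed marrow and the IL-33. The series text gives the later time as 12 weeks where the sample labels give 20; the labels were followed.

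CD90 has a pair of common alleles in mice, and antibodies that tell them apart let a donor be recognised in a chimera. A congenic strain is made by crossing an allele of one strain into another over many generations, and DNA that flanks the selected allele travels with it for a length that differs between lines. The KO and WT cells here differed both in Rag1, which lies on chromosome 2, and in the CD90 allele. These differences coincide in every library, so an effect of the Rag1 deletion and an effect of DNA around Thy1 cannot be told apart. The mapping by position below describes where on chromosome 9 KO and WT libraries differed; the files hold estimated reads and no base calls, and the allele carried by a read was not analysed here.

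Libraries held 11433625 to 32529806 estimated reads. The summed level of 11 ILC2 markers was 3710 to 4860 CPM, and that of 9 myeloid and mast cell markers was 18.8 to 28.7 CPM with S100a9 at 0 in all libraries. The summed level of 13 T cell markers was lower at 20 weeks in KO (743 to 932 CPM) than in WT (945 to 1090 CPM), and at 8 weeks it was 636 to 1020 CPM in KO and 959 to 1200 CPM in WT. The 7 B cell markers were at 163 to 198 CPM in KO and 204 to 318 CPM in WT at 20 weeks, and at 189 to 573 CPM in KO and 171 to 380 CPM in WT at 8 weeks. The 5 NK cell markers did not overlap between times, at 6.13 to 26.0 CPM at 20 weeks and 29.9 to 93.8 CPM at 8 weeks. Whether these RNAs took part in the differences below was not tested, and in a bulk sample fewer cells of a type and less RNA per cell cannot be told apart. Rag1 was estimated at 0 in all 6 WT libraries and at 0 to 0.979 CPM in the 6 KO libraries; its transcripts were summed whole and the deleted part is not given in the sources used here, so this level does not check the labels. On a principal component plot of all genes WT, 8 weeks, replicate 2 stood apart on the first component and KO, 8 weeks, replicate 3 on the second.

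KO and WT libraries differed at 6 of the 106 genes (5.66%, against 0.222% of the 14431 genes tested) when both times were averaged (edgeR quasi-likelihood test, Benjamini-Hochberg adjusted p under 0.05 over all genes). Thy1, Tmprss13, Nxpe4 and Vwa5a were higher in KO (4 genes, where 0.104% of all genes were called higher), and Ubash3b and Nxpe2 were lower in KO (2 genes, where 0.118% were called lower). For 12 of the 106 genes (11.3%, against 0.36% of all genes tested) the 6 KO and the 6 WT libraries did not overlap; these were the 6 above with Tirap, Ccdc15, Siae and Rexo2 higher in KO and Sc5d and Zpr1 lower in KO. Of the 12, 8 were higher in KO (0.166% of all genes were) and 4 lower (0.194% of all genes were). At an unadjusted p under 0.05 there were 23 genes (21.7%, against 3.71% of all genes tested), 14 higher and 9 lower in KO. The median log2 fold change was 0.03 over the 106 genes and 0.01 over all genes tested, and 58 of the 106 were above 0. Tmprss13 and Nxpe2 averaged below 1 CPM in a genotype and reached the level limit only through the other, so that they had to differ. The same holds for Mcam, which is among the 23 genes with an unadjusted p under 0.05. Among the 100 genes at 1 CPM or more in both genotypes, 4 were called and 10 had no overlap. DESeq2 called 11 of the 106 genes, adding Hspa8, Sc5d, Jaml, Zpr1 and Rexo2. Limma-voom called 6, with Hspa8 in place of Tmprss13. With a block for replicate number within time edgeR called 3, and Ubash3b, Nxpe2 and Vwa5a were lost.

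**Figure D1:**
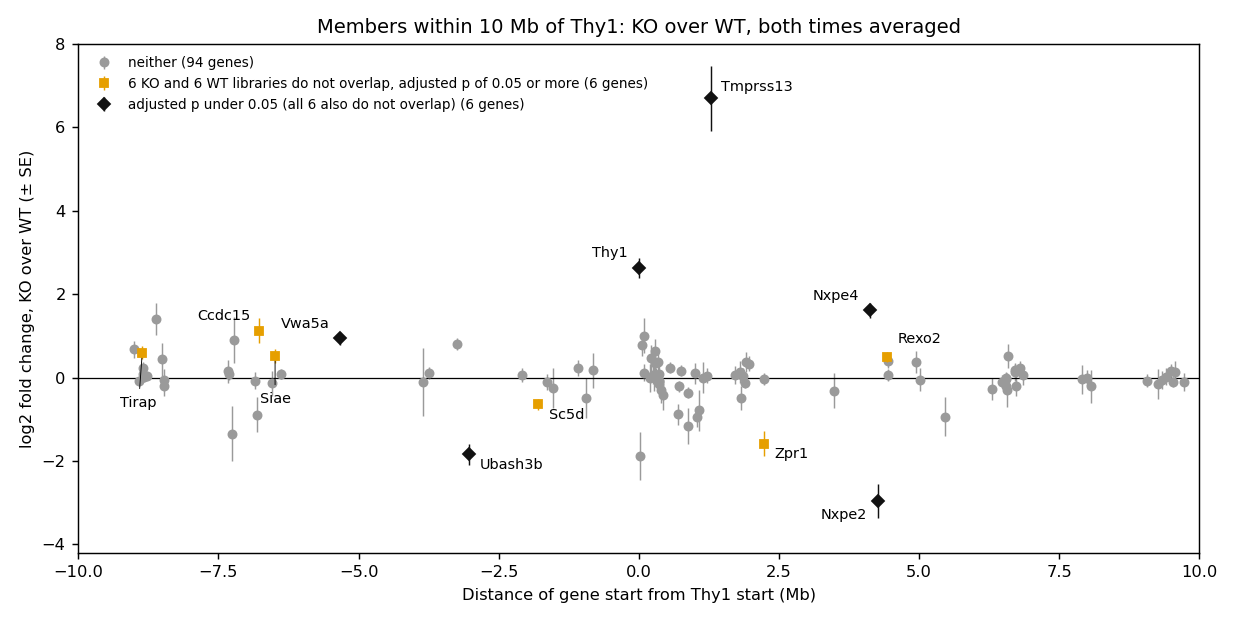
Fitted log2 fold change of KO over WT (both times averaged, ± SE) for the 106 genes against the distance of the gene start from the Thy1 start in Mb. Black diamonds mark the 6 genes with an adjusted p under 0.05, orange squares the 6 other genes whose 6 KO and 6 WT libraries did not overlap, and grey points the remaining 94; all marked genes lie between Tirap at -8.86 Mb and Rexo2 at 4.43 Mb.

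Thy1 itself was at 20.4, 31.6 and 37.8 CPM in KO at 20 weeks, against 3.23, 3.56 and 5.70 CPM in WT. At 8 weeks it was at 18.0, 16.8 and 28.1 CPM in KO, against 3.54, 2.96 and 5.27 CPM in WT. Every KO library was above every WT library at both times. The KO over WT fold was 6.19 with both times averaged (log2 fold change 2.63 ± 0.25 SE, adjusted p 0.000463), 7.25 at 20 weeks (adjusted p 0.00974) and 5.29 at 8 weeks (adjusted p 0.0125). The difference between the 2 times was 0.45 ± 0.47 SE on the log2 scale, with an unadjusted p of 0.354. Its reads were assigned to a single transcript, Thy1-201.

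The nearest members on either side of Thy1 differed less clearly. Tmem136 and Oaf, the members before it, had log2 fold changes of -0.50 ± 0.48 and 0.18 ± 0.42 (SE). Usp2, a deubiquitinase gene that starts 0.0236 Mb beyond the Thy1 start, was at 2.36, 2.05 and 1.79 CPM in KO and 2.33, 10.3 and 40.1 CPM in WT at 20 weeks, and at 1.51, 1.59 and 5.46 CPM in KO and 3.58, 3.26 and 6.56 CPM in WT at 8 weeks. The groups overlapped, a single WT library of 20 weeks was far above the rest, and the adjusted p was 0.776. Rnf26, a ubiquitin ligase gene of the endoplasmic reticulum, was at 5.01 to 11.1 CPM in KO and 3.07 to 6.46 CPM in WT over both times, with a log2 fold change of 0.79 ± 0.26 SE and an adjusted p of 0.914. In the annotation 56.6% of the Rnf26 exonic bases also belong to Gm49380 on the same strand, so its estimate is uncertain.

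The called genes stood on a pair of the role lists, and no list was tested for enrichment. Of 8 measured genes listed for adhesion, proteases and channels, 3 rose and 1 fell in KO, with a median log2 fold change of -0.07; of 11 listed for immune receptors and signalling, 1 rose and 1 fell, with a median of 0.12. Over all genes tested 0.104% rose and 0.118% fell. Tmprss13 and Nxpe2, called on the first list, averaged below 1 CPM in a genotype and reached the level limit only through the other. The lists were drawn up with earlier results of these data known. Of the called genes on the first list, Tmprss13 encodes a protease, while Vwa5a, Nxpe4 and Nxpe2 are described below by domain or family alone. The counts therefore describe the lists and do not show a shared role. No gene was called among 15 of the DNA damage response, chromatin and transcription, 20 of the secretory pathway, 14 of mitochondria and metabolism, 13 of RNA, ribosome and protein folding, 10 kinases, phosphatases and cytoskeletal genes, and 15 on no list. By deposited TPM, which is per length, the most abundant members were Hspa8 (2310 TPM), Rps25 (1180 TPM), Rpl10-ps3 (440 TPM) and Ei24 (374 TPM), and the called genes were at 1.62 to 12.9 TPM.

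Tmprss13 encodes a membrane-anchored serine protease. It was at 11.5, 11.6 and 6.59 CPM in KO and at 0, 0.309 and 0.577 CPM in WT at 20 weeks. At 8 weeks it was at 9.72, 14.1 and 62.2 CPM in KO and at 0.218, 0 and 0 CPM in WT. It was thus readily measured in all KO libraries and at or near 0 in all WT libraries, and the highest KO value came from the 8-week library that stood apart. The mean was 19.3 CPM in KO and 0.184 CPM in WT, where 3 reads in an average WT library correspond to 0.173 CPM. The fitted log2 fold change was 6.70 ± 0.78 SE (adjusted p 0.00213), a size that depends on how values near 0 are handled.

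Nxpe4 and Nxpe2 belong to a family of proteins with neurexophilin and PC-esterase domains, and their starts neighbour each other on chromosome 9. Nxpe4 was at 30.3, 27.7 and 35.1 CPM in KO and 11.3, 11.6 and 9.88 CPM in WT at 20 weeks, and at 31.0, 18.8 and 36.5 CPM in KO and 7.6, 8.20 and 10.5 CPM in WT at 8 weeks. Every KO library was above every WT library. The fold was 3.05 (log2 fold change 1.61 ± 0.18 SE), with an adjusted p of 0.00148.

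Nxpe2 moved the other way. It was at 0.432, 0.235 and 0.213 CPM in KO and 2.49, 3.25 and 2.45 CPM in WT at 20 weeks, and at 0.143, 0.289 and 0.734 CPM in KO and 2.49, 2.17 and 2.64 CPM in WT at 8 weeks. Every KO library was below every WT library, and the log2 fold change was -2.96 ± 0.41 SE (adjusted p 0.00646). Nxpe2 was called in 19 of 20 alternative fits and lost with a block for replicate number within time. Its levels are low, and reads that match both family members could be divided between them by the estimation.

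The reads of Nxpe4 were assigned to Nxpe4-201, which starts at position 48362041 on the plus strand, and Nxpe2-201, with 60.4% of the Nxpe2 reads in WT on average, starts at 48340898 on the minus strand. The 2 start sites are 21143 bases apart and point away from each other. The 250 bases before each start are shown because these genes differed in opposite directions between the genotypes, and the annotated span of Nxpe4 includes Nxpe2; they were taken from the RefSeq promoter table of build GRCm38.p6. Both strands were searched for 4 motifs, none of which contains another. The ETS factor motif was searched as CCGGAAG. That of the GATA factor family was searched as AGATAA. The half-site of nuclear receptors such as the ROR proteins was searched as AGGTCA. The motif of the AP-1 factors was searched as TGACTCA. Capitals mark a match, and both sequences are written 5′ to 3′ on the strand of the gene.
Nxpe4, chr9:48361791-48362040, plus strand: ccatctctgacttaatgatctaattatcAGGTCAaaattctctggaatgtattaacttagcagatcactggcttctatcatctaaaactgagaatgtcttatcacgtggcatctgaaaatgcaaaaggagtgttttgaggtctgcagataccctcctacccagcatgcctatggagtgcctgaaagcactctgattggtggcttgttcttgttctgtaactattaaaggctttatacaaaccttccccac
Nxpe2, chr9:48340899-48341148, minus strand: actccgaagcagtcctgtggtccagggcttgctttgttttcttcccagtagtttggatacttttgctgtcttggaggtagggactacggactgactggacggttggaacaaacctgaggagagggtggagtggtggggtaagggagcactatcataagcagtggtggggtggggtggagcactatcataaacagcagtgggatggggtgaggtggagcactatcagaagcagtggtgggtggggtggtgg
The Nxpe4 window held AGGTCA once, 222 to 217 bases before the start, and the Nxpe2 window held none of the 4 motifs. The half-site occurred in 14.02% of the 32851 promoter windows of that table, the GATA factor motif in 9.99%, the ETS motif in 6.91% and the AP-1 motif in 4.46%. The promoter table had an entry for 79 of the 106 genes.

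Ubash3b encodes a tyrosine phosphatase that dampens signalling from antigen receptors in T cells. It was at 26.7, 28.9 and 23.4 CPM in KO and 77.2, 114 and 70.8 CPM in WT at 20 weeks, and at 19.5, 23.1 and 47.2 CPM in KO and 124, 148 and 74.0 CPM in WT at 8 weeks. Every KO library was below every WT library, and the WT over KO fold was 3.58 (log2 fold change of KO over WT -1.84 ± 0.25 SE, adjusted p 0.00568). Ubash3b was called in 19 of 20 alternative fits and lost with a block for replicate number within time. Its reads fell almost entirely on Ubash3b-201, and the 250 bases before the start of that transcript are shown as those of a called gene that lies before Thy1, on the other side from Nxpe4; they held none of the 4 motifs.
Ubash3b, chr9:41158063-41158312, minus strand: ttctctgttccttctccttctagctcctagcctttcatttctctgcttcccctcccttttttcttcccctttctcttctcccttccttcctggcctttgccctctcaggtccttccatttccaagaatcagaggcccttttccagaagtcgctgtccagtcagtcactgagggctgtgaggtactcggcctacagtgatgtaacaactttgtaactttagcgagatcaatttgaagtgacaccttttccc

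Vwa5a encodes a protein with a von Willebrand factor A domain. It was at 29.2, 26.4 and 29.8 CPM in KO and 15.7, 19.0 and 18.2 CPM in WT at 20 weeks, and at 30.6, 25.8 and 21.3 CPM in KO and 13.6, 8.30 and 12.2 CPM in WT at 8 weeks. The genotypes did not overlap, with a fold of 1.92 (log2 fold change 0.94 ± 0.16 SE, adjusted p 0.0298). This call was close to the threshold and was lost in 9 of the 12 fits that each left out 1 library.

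**Figure D2:**
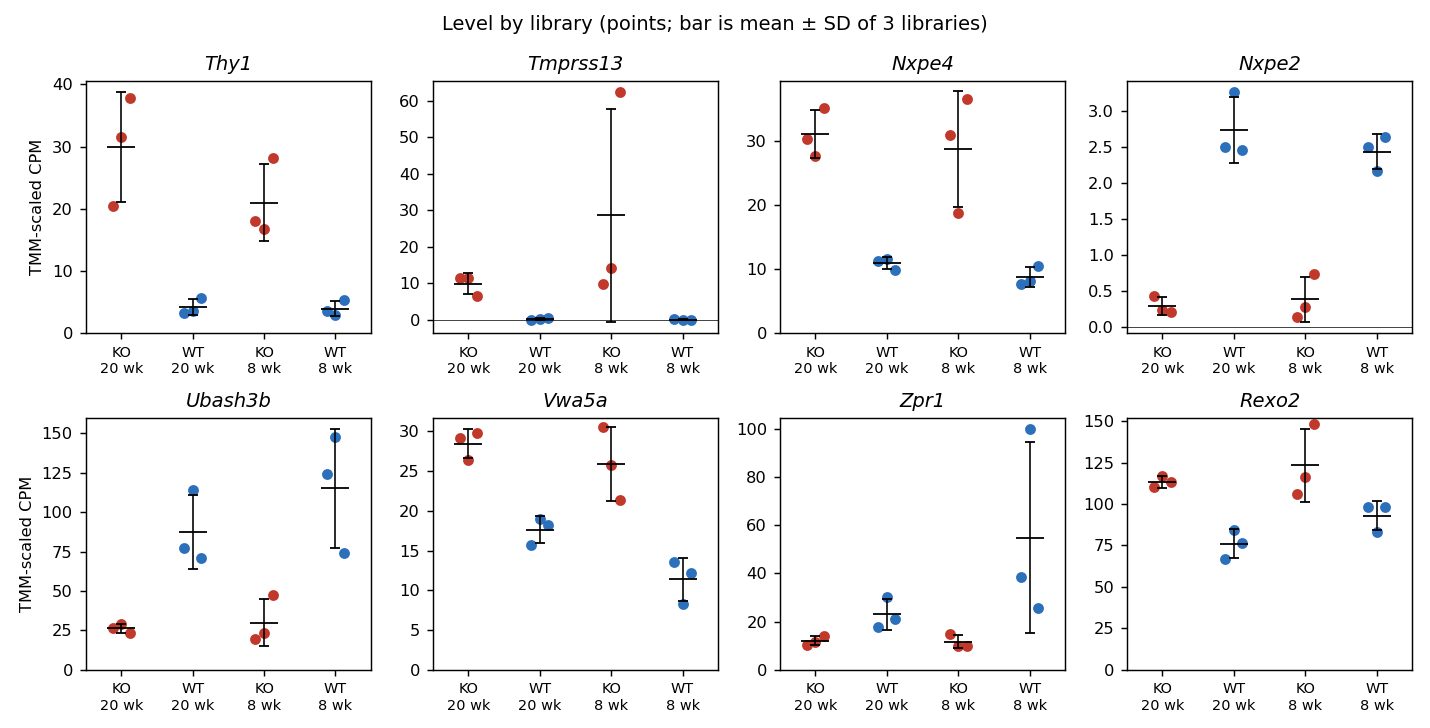
TMM-scaled CPM by library for 8 genes, with KO in red and WT in blue at 20 and 8 weeks; points are libraries and bars the mean ± SD of 3. In each panel all 6 KO points lie above, or all 6 below, the 6 WT points, and each panel has its own linear scale.

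The other genes without overlap changed less or varied more. Zpr1, which encodes a zinc finger protein that binds a translation elongation factor, averaged 11.9 CPM in KO and 22.9 CPM in WT at 20 weeks and 11.6 CPM in KO and 54.9 CPM in WT at 8 weeks, where WT replicate 2 was highest at 100.0 CPM (log2 fold change -1.59 ± 0.30 SE, adjusted p 0.071). Sc5d, a desaturase of late cholesterol synthesis, had a lowest, median and highest level of 129, 142 and 188 CPM in KO and 195, 233 and 296 CPM in WT (log2 fold change -0.64 ± 0.13 SE, adjusted p 0.1). Both were lower in every KO library than in any WT library without passing the adjusted threshold. Rexo2, an RNase that clears short RNAs in mitochondria, averaged 118 CPM in KO and 84.5 CPM in WT (log2 fold change 0.49 ± 0.12 SE, adjusted p 0.352). Tirap, an adaptor of Toll-like receptors, averaged 26.3 CPM in KO and 17.3 CPM in WT, and Siae, an enzyme that removes acetyl groups from sialic acids, averaged 18.7 CPM in KO and 13.1 CPM in WT. Ccdc15, a coiled-coil protein gene, averaged 10.2 CPM in KO and 4.65 CPM in WT. The adjusted p of the last 3 ran from 0.414 (Tirap) to 0.818 (Siae) and the unadjusted p from 0.00211 (Tirap) to 0.00756 (Siae). In the annotation 9.05% of the Tirap exonic bases are shared with Gm39318 and 7.06% of the Siae exonic bases with Tbrg1, both on the opposite strand, and the strand of the libraries is not given in the sources used here.

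Hspa8, the constitutive heat shock cognate chaperone and the most abundant of these genes, was at 2870, 3080 and 2620 CPM in KO and 1270, 1490 and 1420 CPM in WT at 20 weeks. At 8 weeks it was at 3690, 4110 and 4650 CPM in KO and 2550, 3580 and 2160 CPM in WT. KO was above WT within each time, but the KO libraries of 20 weeks overlapped with the WT libraries of 8 weeks. The log2 fold change was 0.81 ± 0.15 SE with an adjusted p of 0.0612. Without WT, 8 weeks, replicate 2 the gene was called.

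Split by time, the KO and WT libraries did not overlap at 25 genes at 20 weeks (23.6%, against 11.4% of all genes tested) and at 19 genes at 8 weeks (17.9%, against 5.63%). At 14 genes they did not overlap at both times, in each case with the same direction at both (0.686% of all genes tested did so). These counts hold genes that reached the level limit through a single genotype: Tmprss13 and Nxpe2 at both times, Ncam1 at 20 weeks and Mcam at 8 weeks. At an adjusted p under 0.05, 1 gene was called at 20 weeks, Thy1 (0.943%, against 0.0554% of all genes tested, 0.0208% higher and 0.0346% lower in KO). At 8 weeks 3 were called, Thy1, Tmprss13 and Nxpe4, all higher in KO (2.83%, against 0.201% of all genes tested, 0.104% higher). Of these, Tmprss13 reached the level limit only through KO. At an unadjusted p under 0.05 there were 17 genes at 20 weeks (2.08% of all genes tested) and 18 at 8 weeks (3.62%). By their file headers all 3 KO libraries of 20 weeks were quantified with 24 threads, against 1 of the 3 WT libraries of that time, and with the thread number as a covariate no gene was called at 20 weeks. Within the libraries with 24 threads Thy1 was at 16.8 to 37.8 CPM in KO and 5.27 and 5.70 CPM in WT, and within those with 8 threads it was at 18.0 and 28.1 CPM in KO and 2.96 to 3.56 CPM in WT. No gene was called for a difference of the genotype effect between times with edgeR, DESeq2 or limma-voom (0 of 106, against 0.097% of all genes tested with edgeR); 1, 3 and 0 had an unadjusted p under 0.05 with these tools (2.18% of all genes with edgeR). The call at 20 weeks was lost without KO replicate 2 or 3 or without WT replicate 1 or 2 of that time, and all 3 calls at 8 weeks were lost without WT replicate 1 or 2 of that time.

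Ordered along the chromosome, the genes called or without overlap over both times lay between Tirap and Rexo2. The 78 members from St3gal4 to Rexo2 (starts 35046576 to 48468512) held all 6 called genes (7.69%, against 0.222% of all genes tested), all 12 genes without overlap (15.4%, against 0.36%) and 22 of the 23 genes with an unadjusted p under 0.05 (28.2%, against 3.71%), and their median absolute log2 fold change was 0.25. The 28 members from Rbm7 to Slc35f2 (starts 48488701 to 53771538) held no called gene with edgeR, DESeq2 or limma-voom, no gene without overlap and 1 gene with an unadjusted p under 0.05 (3.57%), and their median absolute log2 fold change was 0.14. Within single times, 5 of these 28 had no overlap at 20 weeks (17.9%, against 11.4% of all genes tested) and 1 at 8 weeks (3.57%, against 5.63%); Gm5617 was without overlap at both. This border was drawn after the values were seen and was not tested. The called genes of the 78 members include Tmprss13 and Nxpe2, which had to differ to reach the level limit. Mcam, among the 22 with an unadjusted p under 0.05, reached that limit only through KO. Ncam1, among the 5 of 28 without overlap at 20 weeks, reached it only through WT. The median SE was 0.24 among the 78 members and 0.22 among the 28.

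At the border, Rexo2 is followed by Rbm7, a subunit of a complex that targets nuclear RNA for degradation. Rbm7 was at 91.3, 77.8 and 77.8 CPM in KO and 80.4, 74.7 and 76.6 CPM in WT at 20 weeks, and at 66.3, 77.6 and 82.9 CPM in KO and 84.6, 51.5 and 82.9 CPM in WT at 8 weeks (log2 fold change 0.07 ± 0.14 SE). The genotypes overlapped at both times. The next gene, Gm5617, averaged 8.03 CPM in KO and 6.07 CPM in WT (log2 fold change 0.40 ± 0.16 SE, unadjusted p 0.0287, adjusted p 1.0); its libraries did not overlap within either time but did over both. Further on, Sdhd, a subunit of succinate dehydrogenase, averaged 208 CPM in both KO and WT, Atm, a kinase of the DNA damage response, 19.9 CPM in KO and 19.6 CPM in WT, Acat1, a mitochondrial thiolase, 225 CPM in KO and 241 CPM in WT, and the last member, Slc35f2, 14.3 CPM in KO and 15.3 CPM in WT.

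Differing and level genes alternated within the first stretch. Of the 26 tested members that start between 44 and 45 Mb, where Thy1 lies, 1 was called and 7 had an unadjusted p under 0.05. Of the 12 between 45 and 46 Mb, 1 was called and 2 had an unadjusted p under 0.05, and of the 6 between 48 and 49 Mb, 2 were called and 4 had an unadjusted p under 0.05. Over all genes tested these shares were 0.222% and 3.71%. Tmprss13 (45 to 46 Mb) and Nxpe2 (48 to 49 Mb) are among these called genes and reached the level limit through a single genotype. So did Mcam (44 to 45 Mb), which is among those with an unadjusted p under 0.05. Some neighbours of called genes were level. Il10ra, which encodes a chain of the IL-10 receptor and starts just before Tmprss13, averaged 67.7 CPM in KO and 66.9 CPM in WT. Sorl1, a sorting receptor gene next to Ubash3b, averaged 144 CPM in KO and 137 CPM in WT. Gramd1b and Zfp202, between Vwa5a and Hspa8, had log2 fold changes of 0.11 ± 0.15 and -0.11 ± 0.81 (SE), and Cadm1, before Nxpe4, one of -0.31 ± 0.42 (SE). The estimates of Zfp202 and Cadm1 are too imprecise to call them level. Other neighbours differed: Hspa8, on the other side of Ubash3b, had 0.81 ± 0.15 and Rexo2, the member after Nxpe2, 0.49 ± 0.12 (SE). Dscaml1, the tested gene after Tmprss13, was below the level limit and measured in KO alone. Among abundant genes of the stretch, Rps25, Stt3a, Tbrg1, Srpr, Trappc4 and Dcps, named as level genes, had log2 fold changes of -0.09 to 0.09. Other abundant genes of the stretch moved further, among them Hspa8 and Rexo2. Sc5d, Arcn1 and Ei24 had log2 fold changes of -0.64 ± 0.13, -0.88 ± 0.25 and -1.34 ± 0.66 (SE).

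Before the interval, Ets1, a lymphoid transcription factor gene 11.4 Mb before Thy1, averaged 2470 CPM in KO and 595 CPM in WT, with no overlap (log2 fold change 2.48 ± 0.32 SE, adjusted p 0.004). The Ets1 log2 fold change was 0.89 ± 0.43 (SE) at 20 weeks and 4.07 ± 0.48 (SE) at 8 weeks. This difference between times had an unadjusted p of 0.000229 and an adjusted p of 0.144 (edgeR). The highest Ets1 level, 5850 CPM, came from the 8-week KO library that stood apart. Fli1, the neighbouring ETS factor gene on the far side of Ets1, averaged 414 CPM in KO and 406 CPM in WT (log2 fold change 0.04 ± 0.34 SE). Of the 146 tested genes of chromosome 9 before Ets1, none was called with edgeR, DESeq2 or limma-voom, 1 had an unadjusted p under 0.05 and none had libraries without overlap. Between Ets1 and St3gal4 a single gene was tested, Gm10698 (log2 fold change 1.04 ± 1.10 SE).

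Past the interval the picture was mixed. The 18 tested genes between its end and Pstpip1 held none called with the 3 tools, none with an unadjusted p under 0.05 and none without overlap. Beyond them Fam219b (51.8 CPM in KO and 222 CPM in WT), Coro2b (11.9 CPM in KO and 3.34 CPM in WT) and Dapk2 (0.943 CPM in KO and 5.45 CPM in WT) were called with adjusted p of 0.00646, 0.00376 and 0.004, at 13.5, 18.4 and 22.1 Mb from Thy1. The Coro2b difference was smaller at 20 weeks (log2 fold change 0.91 ± 0.38 SE) than at 8 weeks (3.72 ± 0.44 SE). Outside the interval 4 of the 657 tested genes of chromosome 9 were called (0.609%) and 6 had libraries without overlap (0.913%), against 0.161% and 0.249% of the 13633 tested genes on other chromosomes. The excluded CD3 chain genes start 0.926 to 0.955 Mb beyond Thy1. Cd3g averaged 34.5 CPM in KO and 48.9 CPM in WT, Cd3d 2.44 CPM in KO and 3.23 CPM in WT, and Cd3e 0.175 CPM in KO and 1.72 CPM in WT, with adjusted p of 1.0, 1.0 and 0.594. Zbtb16, which encodes a transcription factor of innate lymphocyte precursors and starts 4.61 Mb beyond Thy1, averaged 1.35 CPM in KO and 1.09 CPM in WT.

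**Figure D3:**
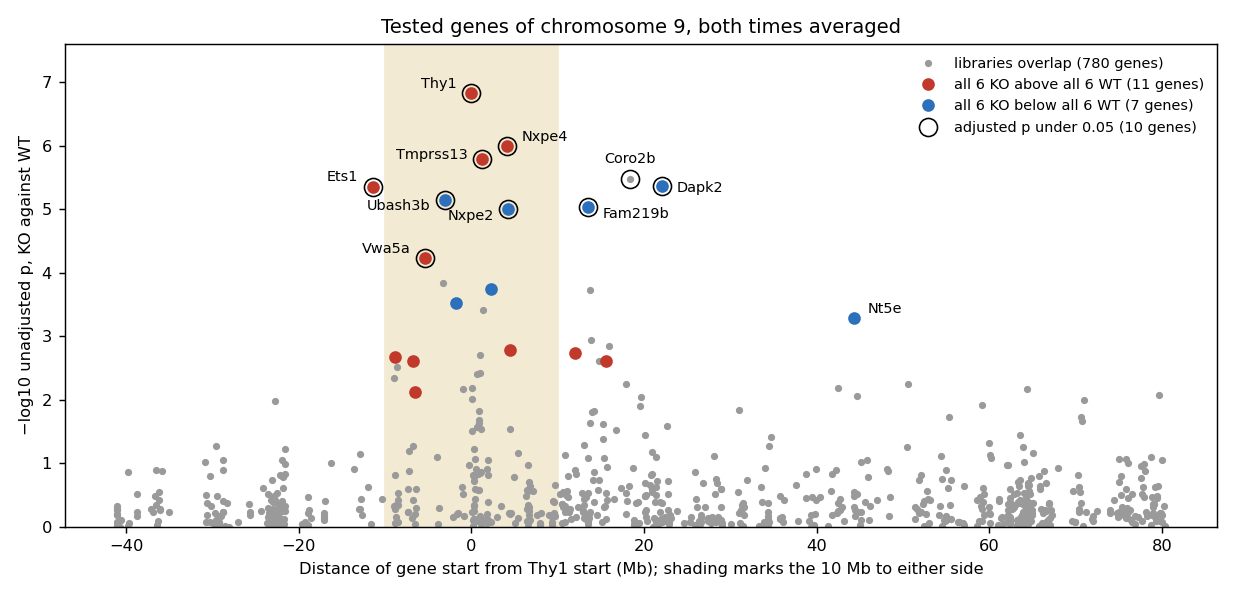
Unadjusted p (as −log10) of KO against WT with both times averaged for the 798 tested genes of chromosome 9 against the distance of the gene start from the Thy1 start in Mb; the shaded band is the interval of 10 Mb to either side. Red points are the 11 genes with all 6 KO above all 6 WT libraries, blue points the 7 with all KO below, and rings the 10 called genes, of which 6 lie in the band.

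Per transcript, 248 transcripts of the 106 genes were tested and 7 were called (2.82%, against 0.0596% of the 35236 transcripts tested with edgeR). The called transcripts were Thy1-201, Nxpe4-201, Hspa8-202 and Hspa8-204, higher in KO, and Ubash3b-201, Zpr1-206 and Hspa8-208, lower in KO. DESeq2 called 17 and limma-voom 6, and 40 had an unadjusted p under 0.05 with edgeR (16.1%, against 3.65% of all transcripts tested). For 17 transcripts of 14 genes (6.85%, against 0.23% of all transcripts tested) the 6 KO and 6 WT libraries did not overlap, 10 higher and 7 lower in KO. All 7 and all 17 came from genes up to Rexo2. The 60 transcripts of the genes from Rbm7 on held no called transcript with the 3 tools and none without overlap. In simulated data the edgeR transcript test recovered 2.02% of log2 changes of 1 and 26.5% of changes of 2. The gene test recovered 60% and 86% of such changes. The lack of calls from Rbm7 on therefore does not show that those transcripts were level. The count of 7 was 3 without WT replicate 2 of 20 weeks, and 4 without any other library of 20 weeks or without KO or WT replicate 1 of 8 weeks. With a block for replicate number within time, 0 of the 7 transcripts were called. The estimates of isoforms of a gene share reads, so transcripts of a gene are not independent.

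The isoforms of Hspa8 moved in opposite directions. The protein-coding Hspa8-202 was at 2410, 2660 and 2260 CPM in KO and 853, 1200 and 1180 CPM in WT at 20 weeks, and at 3100, 3330 and 3810 CPM in KO and 1090, 1010 and 1240 CPM in WT at 8 weeks (log2 fold change 1.40 ± 0.13 SE, adjusted p 0.00577). Unlike the whole gene, this transcript was higher in every KO library than in any WT library. Hspa8-204, annotated as a retained intron, had a lowest, median and highest level of 183, 246 and 346 CPM in KO and 11.7, 34.4 and 169 CPM in WT (log2 fold change 2.79 ± 0.30 SE, adjusted p 0.00825). Hspa8-208, also annotated as a retained intron, was at 26.9, 18.9 and 31.6 CPM in KO and 91.5, 103 and 120 CPM in WT at 20 weeks, and at 131, 165 and 190 CPM in KO and 818, 1120 and 611 CPM in WT at 8 weeks (log2 fold change -2.21 ± 0.20 SE, adjusted p 0.00577). This transcript was lower in KO within each time and higher at 8 weeks than at 20 weeks in both genotypes. Hspa8 has near-identical copies elsewhere in the genome and small nucleolar RNA genes in its introns, so the division of its reads is uncertain.

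Shares of a gene's reads gave the same picture at a few genes. Among 194 transcripts of the 52 genes with several tested isoforms, the share did not overlap between KO and WT libraries for 6 transcripts of 4 genes (3.09%, against 0.197% of all such transcripts): Cdon-201, Hspa8-204, Hspa8-208, Ift46-205, Ift46-206 and Ube4a-206. Hspa8-208 held 0.605 to 4.17% of the gene's reads in KO and 6.87 to 32.1% in WT. Hspa8-204 held 6.83 to 7.59% in KO and 0.907 to 4.86% in WT.

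Ift46 and Ube4a had isoform shares without overlap, although none of their transcripts was called. Ift46 encodes a protein of the transport trains in cilia, and as a whole it averaged 55.2 CPM in KO and 63.8 CPM in WT (log2 fold change -0.21 ± 0.14 SE). Its retained-intron transcript Ift46-206 was at 5.40, 6.87 and 8.43 CPM in KO and 1.25, 0.428 and 0.977 CPM in WT at 20 weeks, and at 1.86, 4.72 and 9.97 CPM in KO and 0.851, 0 and 0.487 CPM in WT at 8 weeks. Every KO library was above every WT library, and the adjusted p was 0.461. The short coding transcript Ift46-205 went the other way, at 0 to 0.681 CPM in KO and 0.761 to 4.26 CPM in WT. Ube4a, a ubiquitin ligase gene, averaged 27.8 CPM in KO and 35.8 CPM in WT (log2 fold change -0.36 ± 0.14 SE, unadjusted p 0.0236), and its transcript Ube4a-206, annotated for nonsense-mediated decay, was at 0.298 to 8.42 CPM in KO and 10.2 to 18.6 CPM in WT. This transcript held 1.02 to 25.7% of the gene's reads in KO and 25.8 to 47.1% in WT, so the extremes of the groups nearly met.

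Some isoforms were measured in one genotype alone. Sc5d-202 was at 28.4, 26.5 and 24.6 CPM in KO at 20 weeks and at 35.5, 50.5 and 0 CPM in KO at 8 weeks, and was estimated at 0 in all 6 WT libraries. The longer Sc5d-201, with all reads of the gene in WT, was at 90.2 to 184 CPM in KO and 198 to 287 CPM in WT, without overlap. Sc5d-202 was thus measured in 5 of 6 KO libraries, while the gene total was lower in KO. Cdon, a receptor gene of the hedgehog pathway, had 57.9 to 89.2% of its reads on Cdon-201 in KO and 100.0% in all WT libraries, at gene levels of 1.71 to 6.82 CPM in KO and 0.874 to 2.57 CPM in WT. An estimate of exactly 0 can come from the division of reads among similar transcripts, and no fold was taken against it.

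**Figure D4:**
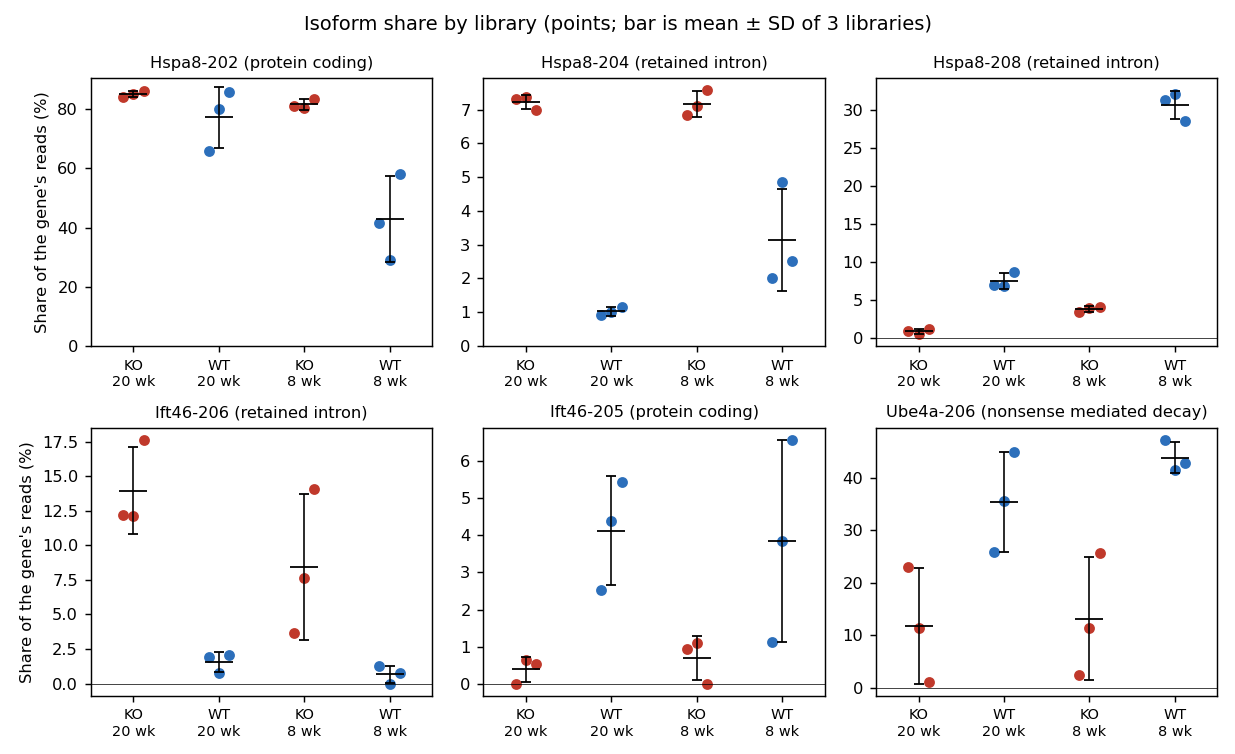
Share of a gene's estimated reads (percent) held by 6 transcripts of Hspa8, Ift46 and Ube4a by library, with KO in red and WT in blue; points are libraries and bars the mean ± SD of 3. The shares of Hspa8-204 and Ift46-206 were higher in every KO library and those of Hspa8-208, Ift46-205 and Ube4a-206 lower in every KO library, while Hspa8-202 overlapped.

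Between the times, averaged over genotypes, 3 of the 106 genes were called (2.83%, against 2.9% of all genes tested), a share near that of all genes. Ei24, a p53-induced gene of the endoplasmic reticulum membrane, was at 13.0, 208 and 16.5 CPM in KO of 20 weeks and 14.1, 12.7 and 14.9 CPM in KO of 8 weeks, and at 113, 306 and 926 CPM in WT of 20 weeks and 12.1, 20.7 and 14.6 CPM in WT of 8 weeks. It was steady at 8 weeks and spread widely at 20 weeks (log2 fold change of 20 over 8 weeks 3.67 ± 0.71 SE, adjusted p 0.0234), with the KO and WT libraries of 20 weeks overlapping. Both other genes were lower at 20 weeks, as were 1.93% of all genes: Hspa8 (-0.76 ± 0.15 SE, adjusted p 0.0239) and Jaml, an adhesion receptor gene of lymphocytes and myeloid cells (-1.02 ± 0.24 SE, adjusted p 0.0453). Jaml was at 3.28, 3.31 and 3.15 CPM in KO of 20 weeks and 4.05, 6.41 and 4.97 CPM in KO of 8 weeks, and at 2.71, 6.96 and 5.05 CPM in WT of 20 weeks and 14.5, 14.0 and 9.74 CPM in WT of 8 weeks. No harvest date is given, so time and harvest batch cannot be told apart. The count of genes called for time ran from 0 to 9 when single libraries were left out.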

How the data were processed

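RNA of 12 sorted ILC2 populations in 4 groups of 3 was sequenced, and no label ties a replicate to its own animal; the p-values therefore cover only variation among these libraries, which may be technical. Estimated counts and TPM per transcript were made by the authors with sailfish 0.6.3 (k-mer length 20, Ensembl release 76), per the file headers, and the deposited values were used as they stood. Other tools in the submitters' processing notes are featureCounts 1.4.5 of Subread, STAR 2.0.4b and bcl2fastq. K-mers are matched to reference transcripts, and the effect of strain variants on the estimates was not tested.

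Estimated reads were summed per gene through GENCODE M21 (83739 of 86127 transcripts matched; the others, 1.0 to 1.5% of reads per library, were left out), rounded, filtered (filterByExpr), scaled by TMM and tested with edgeR 4.0.16 (R 4.3.3), with 4 group means and Benjamini-Hochberg adjustment over 14431 genes or 35236 transcripts. CPM printed are TMM-scaled. DESeq2 1.42.0, limma 3.58.1, other scalings, no filter, TPM-derived counts, a replicate block, the thread number and left-out libraries were alternatives; the methods were tested on simulated data. The members and lists were chosen with earlier results of these data known. Genes were named by a rule: Thy1 and its neighbours, called genes and transcripts with their neighbours, genes without overlap, the limits of the interval, the smallest p for time, and the most abundant of each role list. Ift46, Ube4a, Sc5d and Cdon isoforms and some level genes were chosen after their values were seen.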

Additional observations from a re-analysis of the deposited data

How the results depend on the processing

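With both times averaged, the count of 6 called genes became 11 with DESeq2 and 5 to 8 when single libraries were left out. Thy1 and Nxpe4 were called in 20 of 20 alternatives, Tmprss13 in 19 (lost with limma-voom), Ubash3b and Nxpe2 in 19 each (lost with the replicate block) and Vwa5a in 9. At 20 weeks the count of 1 became 7 with DESeq2, 0 with the thread number, 4 with only the libraries of 20 weeks, 6 without the 2 libraries that stood apart, and 0 to 4 without single libraries. At 8 weeks the count of 3 became 5 without the filter, 8 with DESeq2, 0 with only the libraries of 8 weeks, 5 without the 2 libraries that stood apart, and 0 to 7 without single libraries (7 without KO replicate 3). For time the count of 3 became 7 with DESeq2, 0 with the thread number, 6 without the 2 libraries that stood apart, and 0 to 9 without single libraries. The 7 transcripts became 17 with DESeq2 and 3 to 8 without single libraries. With the replicate block, 3 genes were called with both times averaged, 1 at 8 weeks, 0 for time and 0 of the 7 transcripts; deviations of same-numbered libraries correlated at -0.0131 to 0.351 (over 0.1 in 4 of 6 pairs) and those of others at -0.423 to 0.279, and 8 of 12 libraries correlated best with their own number, a hint of pairing that does not hold for every pair. No gene was called for the interaction in 20 alternatives. Ube4a had a log2 fold change of 0.02 with length-scaled TPM, against -0.36. Without TMM scaling 9 of the 12 genes without overlap kept it, and Tirap, Siae and Vwa5a did not; without the 2 libraries that stood apart there were 15, an alternative chosen after seeing the data. The causes were not tested. Levels near 3 reads per library limit Tmprss13 and Nxpe2.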

Other observations

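Within 10 Mb of Thy1, and apart from Cd3d, Cd3e, Cd3g and Zbtb16, 31 tested genes were no members, 21 of them protein-coding and below 1 CPM by the mean. None was called with edgeR, none had KO and WT libraries without overlap, and 4 had an unadjusted p under 0.05. Dscaml1, a gene of an adhesion molecule of neurons, averaged 1.43 CPM in KO with 1 KO library at 0 and was at 0 in all 6 WT libraries, at least 8.27-fold higher in KO than the 0.173 CPM that 3 reads give in an average WT library (adjusted p 0.122). Pou2f3, which encodes the transcription factor of tuft cells, had a log2 fold change of -4.34 ± 1.28 SE (unadjusted p 0.00668). Phldb1 and the long noncoding RNA gene Gm10684 had log2 fold changes of -1.79 ± 0.71 and -1.56 ± 0.63 (SE), at means of 0.444 and 0.553 CPM. These came from 8 weeks (-3.87 and -2.83), while at 20 weeks the log2 fold changes were 0.29 and -0.29.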
